A study of Mus musculus with 8 samples.

Results

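MHC class I loading and the immunoproteasome were followed through 10 genes: Psmb8, Psmb9, Psmb10, Tap1, Tap2, Tapbp, B2m, H2-K1, H2-D1 and Nlrc5. They were chosen by name, as the non-control probes that carry one of these gene names, and make up 12 of 55681 probes and 10 of 35715 gene names on the array. All 12 probes passed the filter on dim signal, 1 of them only through the doxycycline arrays, and all 10 genes were tested, among 21362 genes in all.

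RNA from the ileum, the last stretch of the small intestine, was hybridised to 8 single-colour Agilent arrays, 4 per group. All animals were female and labelled as the strain Rosa26rtTA/+, Hprt Myc-Tnk1tg. In this strain the doxycycline-dependent activator rtTA is made from Rosa26, a locus active in most cell types, and a Myc-tagged Tnk1 transgene sits at the X-linked Hprt locus. TNK1 is a non-receptor tyrosine kinase, and the study asks what its induction does in the gut. One group was injected intraperitoneally with 100 µl of doxycycline at 50 µg per g of body weight and the other with 100 µl of 0.9% NaCl (saline), and tissue was taken 24 hours later. The saline samples carry WT in their title and source name although their strain is given as the transgenic one. They were taken as transgenic here, but the labels conflict. No group had doxycycline without the transgene. Effects of the drug, of the kinase and of any difference in genotype cannot be told apart. Age is not given in the sources used here, and nothing there says that each array holds another animal. The p-values therefore speak of the spread among these samples, which may be technical.

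MHC class I molecules show peptides from inside the cell to CD8 T cells. The peptides are cut by the proteasome, which in immune cells and after interferon exposure exchanges its 3 catalytic subunits for the immunoproteasome subunits PSMB8, PSMB9 and PSMB10. The heterodimer of TAP1 and TAP2 pumps the peptides into the endoplasmic reticulum, where tapasin (Tapbp) holds the transporter next to an empty class I molecule made of a heavy chain (H2-K1 or H2-D1) and the light chain B2m. NLRC5 is the transactivator of class I genes. The small intestine is known for high class I levels in its epithelium and for many intraepithelial T cells.

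Levels below are log2 intensities relative to each array's 75th percentile, so 0 is that percentile and 1 unit is a factor of 2. A difference is doxycycline minus saline. A gene passed the test when limma's adjusted p over all 21362 genes was under 0.05. In a bulk sample, fewer cells of a type and less RNA per cell cannot be told apart.

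Of the 10 genes, 1 passed as higher, Nlrc5, and 0 passed as lower, with 3 at an unadjusted p under 0.05. Over all genes tested, 5.94% passed as higher, 7.9% as lower and 13.8% in either direction. The median difference of the 10 genes was -0.01, beside 0.02 over all genes. For 7 of the 10 the difference was under 0.2 in either direction, which held for 31.6% of all genes. All 10 were brighter than the median gene tested, and the share over all genes was not matched for level. Nlrc5 and Tap1 were higher, and Psmb9 lower, on every doxycycline array than on every saline array. Groups that did not overlap made up 8.83% of all genes in the higher direction, 13% in the lower direction and 21.9% together. The 95% interval of 7 of the 10 differences stayed within 2-fold either way, and that of 6 within 1.5-fold.

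**Figure D1:**
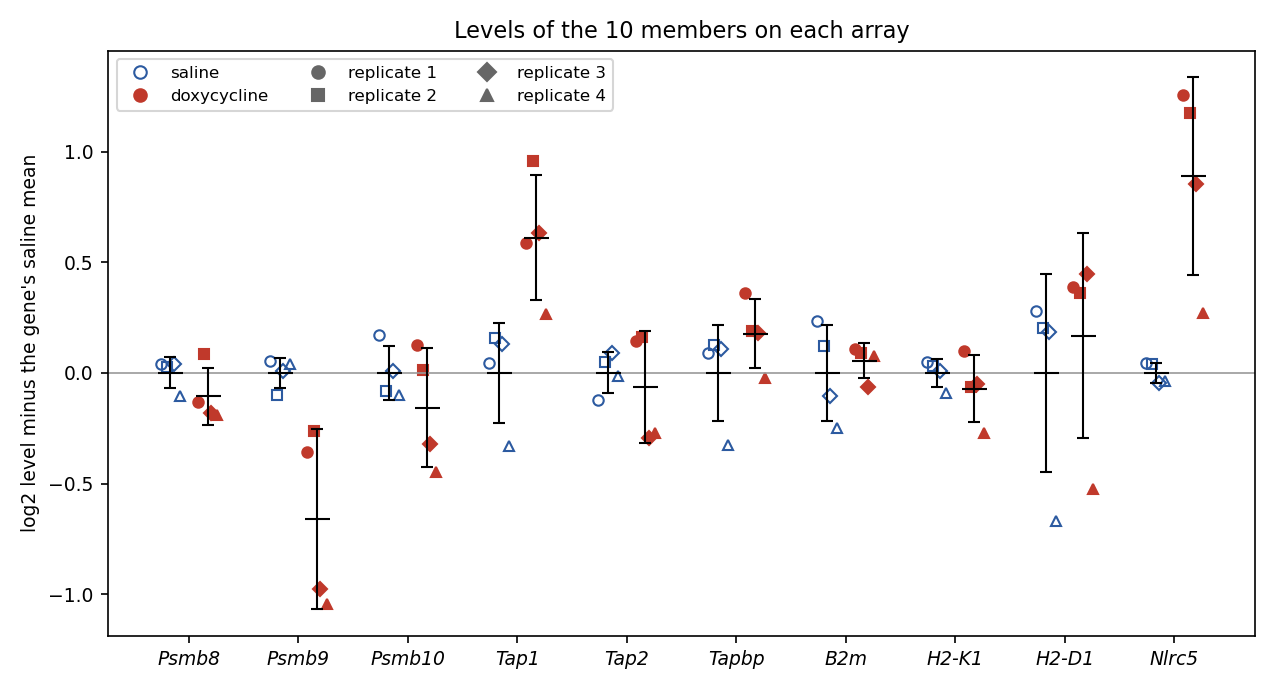
Level of each of the 10 genes on each of the 8 arrays, as log2 level minus the gene's saline mean (vertical axis). Open blue symbols are saline and filled red symbols doxycycline, the symbol shape gives the replicate number, and black bars are mean ± SD (n = 4). Nlrc5 and Tap1 lie above all saline arrays and Psmb9 below them, while the groups of the other 7 genes overlap.

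The probes show what was measured. Those printed here, as the array design gives them, are probes for genes whose groups separated, with their neighbour Psmb8 and a class I heavy chain probe whose sequence another gene shares.
Psmb9: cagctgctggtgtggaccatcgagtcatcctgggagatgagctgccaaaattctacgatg
Tap1: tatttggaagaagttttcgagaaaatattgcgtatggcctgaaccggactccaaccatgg
Psmb8: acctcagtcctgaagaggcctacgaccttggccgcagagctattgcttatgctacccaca
Nlrc5 (the dimmer of its probes): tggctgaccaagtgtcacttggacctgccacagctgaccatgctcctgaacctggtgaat
H2-K1 (the dimmer of its probes): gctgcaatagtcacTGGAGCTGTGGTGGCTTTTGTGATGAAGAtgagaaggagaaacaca
Capitals in the H2-K1 probe mark a run of 29 bases that is also in the probe for H2-T23, a nonclassical class I gene, and a run of 22 bases, from base 31 to 52, is also in a probe for LOC101056305, so this H2-K1 value can include signal from related sequences. The brighter H2-K1 probe shared no run longer than 14 bases with any other gene's probe. Only probes on the array were compared, not transcripts, so this does not show that the brighter probe reads H2-K1 alone. The probes for Psmb9, Tap1, Psmb8 and Tap2 lie within 34002 bases of chromosome 17 in the array's mm9 annotation: Psmb9 at chr17:34319174-34319233 (minus strand), Tap1 at chr17:34330854-34330913, Psmb8 at chr17:34337771-34337830 and Tap2 at chr17:34353116-34353175. The RefSeq gene order (GRCm38.p6) has these 4 genes as direct neighbours inside the MHC. Tapbp (chr17:34065963-34066022), H2-K1 (chr17:34133055-34133114 and chr17:34133984-34134043, minus strand) and H2-D1 (chr17:35403886-35403945) are on the same chromosome. Nlrc5 (chr8:97051105-97051164 and chr8:97030566-97030624) and Psmb10 (chr8:108459677-108459736, minus strand) are on chromosome 8, and B2m (chr2:121978401-121978460) is on chromosome 2. No transcript annotation of mm9 was used here, so exon and UTR positions are not given.

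Psmb9 and Tap1 are transcribed away from each other from a short shared stretch. It is shown because these neighbours had differences of opposite sign, and it covers the 225 bases between their RefSeq starts, at chr17:34187331-34187555 (GRCm38.p6, plus strand, Psmb9 side first).
Psmb9 to Tap1: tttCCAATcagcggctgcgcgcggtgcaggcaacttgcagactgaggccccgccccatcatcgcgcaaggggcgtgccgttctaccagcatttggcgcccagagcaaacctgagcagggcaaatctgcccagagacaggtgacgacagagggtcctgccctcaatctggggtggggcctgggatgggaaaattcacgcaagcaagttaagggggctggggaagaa
Capitals mark the only Y box (CCAAT, on either strand), the motif bound by NF-Y. The stretch held no match to the interferon response element core (GAAANNGAA), to the interferon-gamma activated site (TTCNNNGAA, called GAS) or to the NF-kB motif, on either strand. Promoter sequences were found for 8 of the 10 genes, not for Tap2 and Nlrc5. In the 250 bases before the start, 1 of the 8 held an interferon response core (B2m), 1 a GAS match (Psmb8), 3 an NF-kB match (B2m, H2-D1 and H2-K1) and 6 a Y box, of which Psmb9 and Tap1 share a single box. Over all 32817 RefSeq promoters the shares were 7.12%, 7.01%, 3.9% and 33.8%. The interferon core, GAS and NF-kB matches are shown with 10 bases on each side, motifs in capitals, and the Y boxes of Tapbp, B2m, H2-K1 and H2-D1 are not shown.
B2m, chr2:122147538-122147580, plus strand: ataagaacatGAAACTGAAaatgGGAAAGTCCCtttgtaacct
H2-K1, chr17:34000438-34000468, minus strand: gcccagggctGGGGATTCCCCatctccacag
H2-D1, chr17:35262913-35262943, plus strand: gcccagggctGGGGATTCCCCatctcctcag
Psmb8, chr17:34198088-34198116, plus strand: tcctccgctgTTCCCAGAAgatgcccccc
The B2m stretch holds the interferon core first and the NF-kB match after it. The H2-K1 and H2-D1 stretches hold the same NF-kB letters. These are letter matches, and no binding was measured.

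Nlrc5, the transactivator, had the largest difference of the 10 genes. Its brighter probe read 3.16, 3.08, 2.76 and 2.17 on doxycycline arrays 1 to 4, and 1.95, 1.94, 1.86 and 1.87 on saline arrays 1 to 4. The saline arrays lay close together, the doxycycline arrays were spread widely, and the lowest doxycycline array still lay above every saline array. The difference was 0.89 on the log2 scale (SE 0.220, 95% interval 0.39 to 1.39), a 1.85-fold rise (limma adjusted p = 0.0305, exact two-sided permutation p = 0.0286). With 4 arrays against 4, 0.0286 is the smallest exact p possible. Under all 18 alternatives the difference lay between 0.77 and 1.09. Its direction could not change where arrays were left out, because the groups do not overlap. Nlrc5 passed the threshold in 9 of them and missed it in 9, with limma adjusted p from 0.00858 to 0.104. The 9 passes include the mean of its kept probes. That setting averages in the dimmer probe described next, so it adds no support of its own. Of the 8 fits that each leave out 1 array, the fit without doxycycline 4 alone kept the call.

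The dimmer Nlrc5 probe lies 5′ of the brighter one. Its mean was -2.66 ± 0.34 (SD, n = 4) on the doxycycline arrays and -3.90 ± 0.34 (SD, n = 4) on the saline arrays. The scanner software put it well above background on 4 of 4 arrays with doxycycline and on 0 of 4 with saline, and it passed the filter on dim signal only through the doxycycline arrays. Its doxycycline mean lay below -2.57, the lowest level well above background on saline 4. No fold or p is therefore given for this probe, and it does not bear on the rise of the brighter one, which had an adjusted p of 0.0331 in a limma fit over all 28626 kept probes.

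Tap1, the first subunit of the peptide transporter, read 1.87, 2.23, 1.91 and 1.54 with doxycycline and 1.32, 1.43, 1.41 and 0.95 with saline. Every doxycycline value was above every saline value. The difference was 0.61 (SE 0.192, interval 0.18 to 1.04), or 1.53-fold, with an unadjusted limma p of 0.0111 and an adjusted p of 0.0653, which missed the threshold. The exact permutation p was 0.0286. Under the alternatives it lay between 0.50 and 0.73 and passed in 3 of 18. The Tap1 probe is printed 10 times on each array, and these spots had a median SD of 0.0812 within an array, which measures spot noise and not the variation between samples (SD 0.28 with doxycycline and 0.23 with saline).

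Tap2, its partner, was at 5.68, 5.69, 5.23 and 5.26 with doxycycline and at 5.41, 5.58, 5.62 and 5.51 with saline. Doxycycline 1 and 2 lay above all saline arrays and 3 and 4 below them. The difference was -0.07 (SE 0.164, interval -0.44 to 0.31, limma adjusted p = 0.820), and its sign changed to 0.01 with quantile normalization and without doxycycline 3. The Tap2 interval leaves out a rise of the size measured for Tap1, while the intervals of the 2 genes overlap, and a test of Tap1 against Tap2 was not made.

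Psmb9, the immunoproteasome subunit that replaces Psmb6, had a difference in the opposite direction to Tap1. It read 5.15, 5.25, 4.53 and 4.46 with doxycycline and 5.56, 5.41, 5.52 and 5.55 with saline. The saline arrays were close together, while doxycycline 3 and 4 were far lower than 1 and 2. The difference was -0.66 (SE 0.208, interval -1.13 to -0.19), or 1.58-fold, with an unadjusted limma p of 0.0113, an adjusted p of 0.0662 and an exact permutation p of 0.0286. It missed the threshold here and passed in 4 of 18 alternatives, with differences from -0.79 to -0.52. One of the 4 is the fit without doxycycline 2 (adjusted p = 0.0459).

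Psmb8, which replaces Psmb5, read 5.08, 5.30, 5.03 and 5.03 with doxycycline and 5.26, 5.24, 5.26 and 5.11 with saline. The groups overlapped because doxycycline 2 was the highest of the 8 arrays. The difference was -0.11 (SE 0.136, interval -0.41 to 0.20, limma adjusted p = 0.636).

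Psmb10, which replaces Psmb7, read 7.25, 7.14, 6.80 and 6.68 with doxycycline and 7.29, 7.04, 7.13 and 7.02 with saline. Doxycycline 1 and 2 lay inside the saline range and 3 and 4 below all of them. The difference was -0.16 (SE 0.172, interval -0.55 to 0.23, limma adjusted p = 0.572). No immunoproteasome subunit passed as higher, and the upper ends of the 3 intervals were at or below 0.23.

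**Figure D2:**
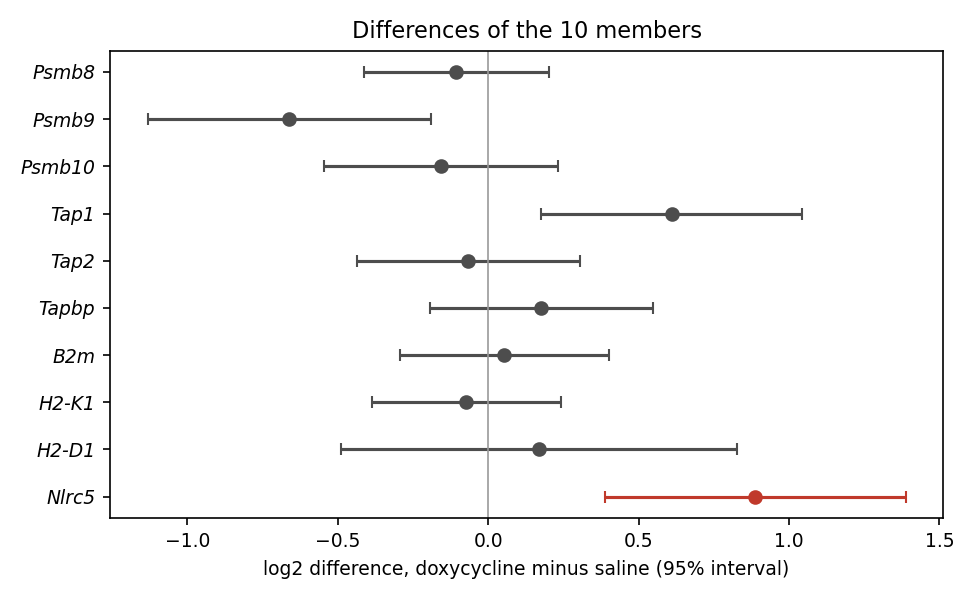
Log2 difference between doxycycline and saline (horizontal axis) for each of the 10 genes, with limma's 95% interval. Nlrc5, in red, passed at an adjusted p of 0.0305, the intervals of Tap1 and Psmb9 leave out 0 without passing after adjustment, and the other 7 intervals include 0.

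Each immunoproteasome subunit was also set against the constitutive subunit that it replaces, within each array. The constitutive genes themselves differed by -0.13 (Psmb5), -0.07 (Psmb6) and 0.21 (Psmb7), and none of the 3 passed. For Psmb9 minus Psmb6, doxycycline arrays 1 to 4 were at -0.23, -0.14, -0.92 and -1.05 relative to the saline mean, and saline arrays at 0.22, 0.15, 0.12 and -0.49. Saline 4 thus lay below doxycycline 1 and 2. The difference was -0.59 (SE 0.284, exact permutation p = 0.0857, adjusted over the 3 pairs 0.257). Psmb10 minus Psmb7 differed by -0.37 (SE 0.308, exact permutation p = 0.286, adjusted 0.429), with doxycycline 1 above all saline arrays and the other 3 below them. Psmb8 minus Psmb5 differed by 0.02 (SE 0.231, exact permutation p = 0.943, adjusted 0.943), with no stable sign: without saline 4 it was -0.19. None of the 3 pairs passed the exact test, although the Psmb9 minus Psmb6 difference was larger than the SD within either group (0.464 with doxycycline and 0.327 with saline). The smallest exact p possible here is 0.0286. After adjustment over the 3 pairs, 1 pair alone could therefore not have passed, whatever its difference.

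**Figure D3:**
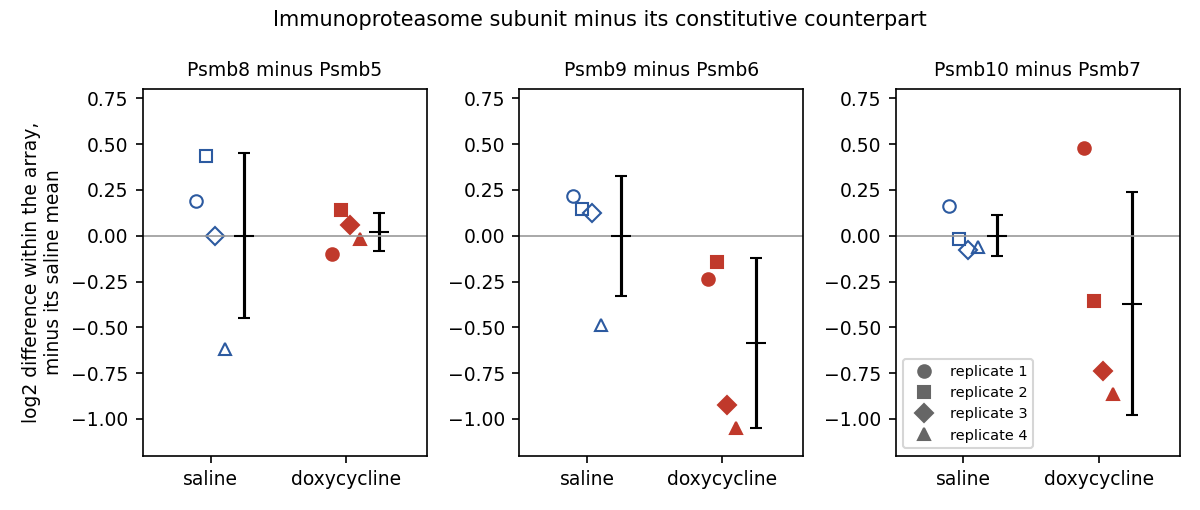
Log2 level of each immunoproteasome subunit minus that of its constitutive counterpart on the same array, relative to the saline mean of the pair (vertical axis). Open blue symbols are saline, filled red symbols doxycycline, shapes give replicate numbers and bars are mean ± SD (n = 4). The groups overlap in all 3 pairs, and doxycycline 3 and 4 are the lowest arrays for Psmb9 minus Psmb6 and Psmb10 minus Psmb7.

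Tapasin (Tapbp) read 4.82, 4.65, 4.64 and 4.44 with doxycycline and 4.55, 4.59, 4.57 and 4.14 with saline. Doxycycline 1, 2 and 3 were above every saline array, and doxycycline 4 was below saline 1, 2 and 3. The difference was 0.18 (SE 0.164, interval -0.19 to 0.55, limma adjusted p = 0.498).

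The light chain gene B2m read 7.56, 7.54, 7.39 and 7.53 with doxycycline and 7.68, 7.57, 7.34 and 7.20 with saline. The doxycycline values lay inside the saline range. The difference was 0.05 (SE 0.154, interval -0.29 to 0.40, limma adjusted p = 0.843), and it turned to -0.03 without saline 4.

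The heavy chain gene H2-K1 read 8.77, 8.60, 8.62 and 8.40 with doxycycline and 8.72, 8.70, 8.68 and 8.58 with saline on its brighter probe. The doxycycline range enclosed the saline range. The difference was -0.07 (SE 0.139, interval -0.39 to 0.24, limma adjusted p = 0.760), and it was 0.04 with normexp background correction. Its dimmer probe, the one that shares bases with H2-T23, gave 6.59 against 6.61, a difference of -0.02 (adjusted p = 0.959 in the probe fit).

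The heavy chain gene H2-D1 read 7.61, 7.58, 7.67 and 6.69 with doxycycline and 7.50, 7.42, 7.40 and 6.55 with saline. Array 4 of each group was far below the rest of its group, and the first 3 doxycycline arrays lay above all saline arrays. The difference was 0.17 (SE 0.291, interval -0.49 to 0.83, limma adjusted p = 0.731), the widest interval of the 10 genes, and it was -0.06 without saline 4.

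Some arrays held the same place for most of the 10 genes. Doxycycline 4 was the lowest of its group for 8 of them and saline 4 for 7. Doxycycline 1 and 2 were both above doxycycline 3 and 4 for 7 of the 10. Over all kept probes, the arrays of a group correlated at 0.967 to 0.984 (doxycycline) and 0.962 to 0.986 (saline), and arrays of different groups at 0.942 to 0.967, with array processing and probe sequence shared. Without doxycycline 4 and saline 4 together, 1 of the 10 genes still passed as higher and 0 as lower.

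The other genes of the pathway were taken as lists by role. Over 88 listed genes without the 10, 82 were on the array and 77 were tested. Of the 77, 1 passed as higher, 3 as lower and 73 not (median -0.02). Of all genes tested, 5.94% passed as higher, 7.9% as lower and 13.8% in either direction, shares to set beside each list below. The lists were chosen with earlier results of these arrays known.

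The constitutive core of the proteasome, the barrel into which the immunoproteasome subunits are built, had 0 of 14 genes passing in limma in either direction (0 at an unadjusted p under 0.05, median 0.13). The largest difference was that of Psma3 (0.35, adjusted p = 0.236). Assembly factors and activators also had 0 of 8 (0 at an unadjusted p under 0.05, median -0.13). Psme1, a subunit of the interferon-inducible activator PA28, was at -0.15 (limma adjusted p = 0.477), Psme4 at 0.31 and the chaperone Psmg2 at -0.27.

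Of 19 genes for peptide trimming and loading, 1 passed as higher and 0 as lower (median -0.17). Thop1, a cytosolic peptidase that degrades peptides before transport, rose 1.91-fold (difference 0.93, SE 0.183, limma adjusted p = 0.0131). It read 0.94, 1.37, 0.82 and 0.94 with doxycycline against a saline mean of 0.08 ± 0.23 (SD, n = 4), with no overlap, and missed the threshold with the replicate number as a block (adjusted p = 0.0560). The cytosolic peptidases Blmh (0.68) and Npepps (-0.66) differed in opposite directions, each at a limma adjusted p of 0.0565, which did not pass. The trimming enzyme Erap1 and the loading chaperones Calr, Canx and Pdia3 did not pass, with differences from -0.32 to -0.12. These 4 were picked after their values were seen.

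Among 23 nonclassical and other class I genes, 0 passed as higher and 1 as lower (median 0.12). H2-T3 encodes the thymus leukemia antigen, a class I molecule of the gut epithelium that binds CD8αα. It fell 2.22-fold (difference -1.15, SE 0.228, limma adjusted p = 0.0137). Its doxycycline arrays read 2.15, 1.30, 1.52 and 1.09 and its saline arrays had a mean of 2.67 ± 0.10 (SD, n = 4). A second H2-T3 probe, well above background on all arrays, differed by -1.39 without overlap of the groups. The remaining H2-T3 probe was dim, well above background on 2 of 4 arrays in each group, and its difference is not given. The call was lost without saline 2 and 4 together (adjusted p = 0.0681) and without doxycycline 4 and saline 4 together (0.0565). H2-T23, whose probe shares bases with one of H2-K1 and which is named for that reason, with its value already seen, differed by 0.07, and Fcgrt, the neonatal Fc receptor, by -0.53 (limma adjusted p = 0.0830). Class I genes are near-identical in parts, so values of single genes in this list are uncertain.

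The list of class I transcription factors, Nlrc5 included, had 1 of 14 genes higher and 2 lower (median -0.03). NLRC5 works on class I promoters together with the RFX and NF-Y complexes. Rfxank, a subunit of RFX, fell 2.87-fold (difference -1.52, SE 0.406, limma adjusted p = 0.0389), with doxycycline 3 and 4 at -1.56 and -1.48 far below doxycycline 1 and 2 at -0.10 and 0.14. Its saline mean was 0.77 ± 0.30 (SD, n = 4). Nfya, the NF-Y subunit A gene, fell 1.72-fold (difference -0.79, SE 0.188, limma adjusted p = 0.0270). Both calls were lost in 8 of 18 alternatives, with adjusted p up to 0.100 for Rfxank and 0.0838 for Nfya. The other subunit genes of RFX and NF-Y, named after their values were seen, did not pass or were not tested. Rfxap differed by -0.00022 (limma adjusted p = 0.999), Nfyb by -0.25 (0.341) and Nfyc by -0.15 (0.589), and Rfx5 was too dim to be tested. The interferon regulators Irf1 (-0.30, limma adjusted p = 0.298) and Irf9 (0.49, 0.0840) did not pass, and Irf1 was picked after its value was seen.

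**Figure D4:**
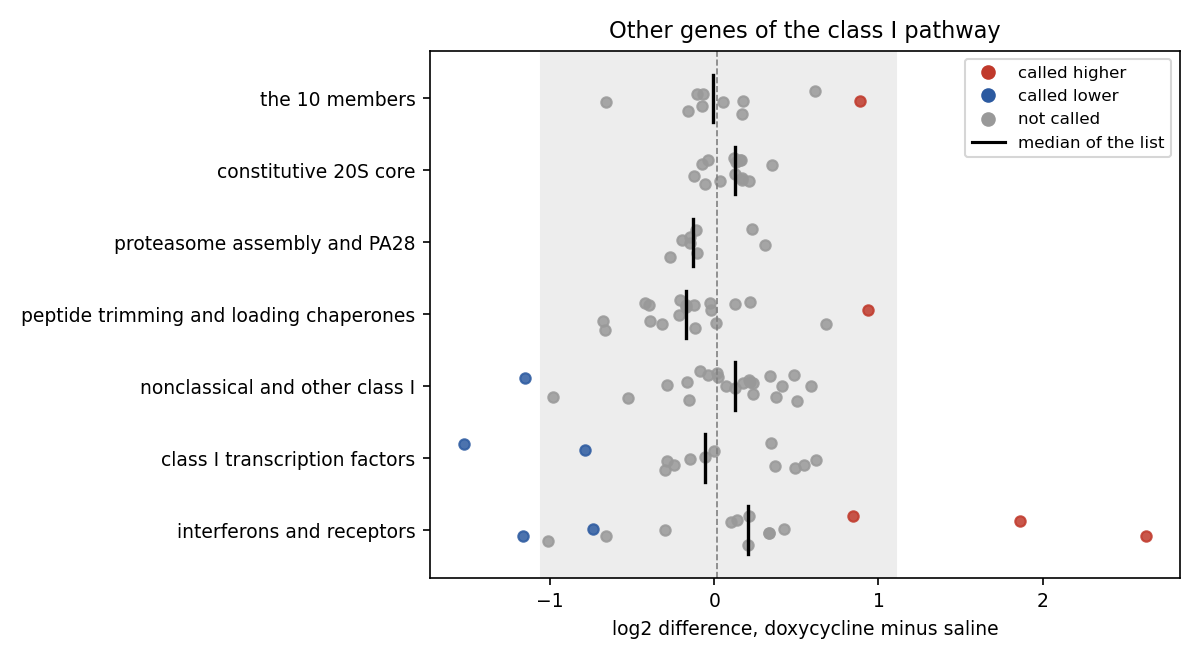
Log2 difference between doxycycline and saline (horizontal axis) of every tested gene in the pathway lists, 1 point a gene, red or blue where limma's adjusted p was under 0.05. Black lines are list medians, the grey band holds the 5th to 95th percentile of all genes tested (-1.06 to 1.10), the dashed line is their median, and Nlrc5 is drawn with the 10 genes and left out of the transcription factors. Most points lie inside the band, with Rfxank, H2-T3, Ifngr2, Socs1 and Socs3 outside it.

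Of 15 genes for interferons, their receptors and feedback inhibitors, 3 passed as higher, 2 as lower and 10 did not pass (median 0.21), beside 13.8% of all genes passing in either direction. The feedback inhibitors Socs1 and Socs3 rose 6.18-fold (difference 2.63, limma adjusted p = 9.2e-04) and 3.63-fold (1.86, 0.0216). The type I interferon receptor subunit Ifnar2 rose 1.79-fold (0.84, limma adjusted p = 0.0254). Ifngr2, the second chain of the interferon-gamma receptor, fell 2.24-fold (-1.16, limma adjusted p = 0.00270). Il10rb, a receptor chain shared by interleukin 10 and interferon lambda and named after its value was seen, fell 1.67-fold (-0.74, limma adjusted p = 0.0437). The call of Il10rb was not recomputed under the alternatives. Ifng, also picked after its value was seen, differed by -1.01 without passing (limma adjusted p = 0.176), and Ifnb1, Ifna1, Ifna2 and Ifna4 were too dim to be tested. Ifnar2 passed in 11 of 18 alternatives, with limma adjusted p up to 0.110, and Socs3 in 14 of 18, with adjusted p up to 0.0643. Leaving out doxycycline 3, doxycycline 4, saline 1 or saline 3 ended the call of either gene, and the call of Ifnar2 also ended with the replicate block and in both fits that leave out 2 arrays.

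The genes whose values over the 8 arrays were most like those of Nlrc5, by the root mean square distance of centred log2 levels, were B4galt5 (0.0792), Tcirg1 (0.133) and Ifi47 (0.138). For Psmb8 they were Fbxo38 (0.0469), Cd164 (0.0474) and Sra1 (0.0479). The distance was searched over all 21362 genes, so near matches are found for any gene.

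Class I genes are active in most cell types, so markers of the cells in the ileum are given beside these values. The shares of all genes passing were 5.94% as higher and 7.9% as lower. The epithelial markers, with 14 tested, had 0 passing as higher and 1 as lower (Cdx2), and their summed linear level was 1596 to 2532 on doxycycline and 2093 to 2131 on saline arrays, relative to the 75th percentile. Of 16 T and NK cell markers, 0 passed as higher and 3 as lower (Nkg7, Gzmb and Tbx21), with sums of 82.2 to 128 and 120 to 194. Ncr1 and Eomes were at background. Myeloid and dendritic markers had 1 of 13 higher (Mrc1) and 1 lower (Adgre1), and Xcr1 was at background. Their sums, 73.3 to 95.6 and 46.4 to 71.5, did not overlap. The mean log2 level of that list did overlap, at 0.73 to 1.24 and 0.22 to 0.91. Of 6 neutrophil markers, 2 were higher (S100a8 and S100a9) and 0 lower, and Cxcr2, Mmp8 and Ngp were at background. The sums of the 6, 101 to 138 and 101 to 106, mostly follow Csf3r, the brightest marker (6.93 and 6.67). The mean log2 level of the neutrophil list was -0.39 to 0.71 and -1.41 to -0.23. S100a8 was detected above background with doxycycline (4 of 4 arrays) and not with saline (0 of 4), so it entered the test only through the group where it was high and had to differ. Of 9 endothelial markers, 3 were higher (Tie1, Esam and Eng) and 0 lower, with sums of 15.4 to 21.6 and 14.4 to 17.7, and Tek was at background. Of 10 mesenchymal markers, 1 was higher (Pdgfra) and 0 lower, with sums of 357 to 523 and 323 to 674. The 9 B cell markers had 0 passing in limma (2 at an unadjusted p under 0.05, median 1.34), and their sums ran from 25.3 to 81.3 with doxycycline and from 5.55 to 86.2 with saline. Saline 2 alone made the high end, with a mean log2 level of the list of 1.58, against -1.71, -1.80 and -2.12 on saline 1, 3 and 4 and 0.01 to 1.18 on the doxycycline arrays. These single markers were named after their values were seen. The part of these markers in the differences of Nlrc5, Tap1 and Psmb9 was not tested.

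The labels were checked on the transgene and its locus. Hprt, which carries the insertion, was 64.6-fold higher with doxycycline (limma adjusted p = 5.55e-05 in the probe fit). In the same fit the dimmer Tnk1 probe was 6.92-fold higher (limma adjusted p = 4.16e-04). The brighter Tnk1 probe differed by -0.45 (limma adjusted p = 0.143). All arrays were on 1 slide, with doxycycline in one row and saline in the other, and the effect of the row cannot be told apart from that of the injection. The share of probes well above background was 54.7% to 57.0% on doxycycline and 39.6% to 43.1% on saline arrays, so dim probes such as the second one of Nlrc5 were more often detected with doxycycline. The brightest probe of each of the 10 genes was well above background on all 8 arrays.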

How the data were processed

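Spot intensity (linear) was deposited as scanner output from Agilent Feature Extraction 10.7.3.1, per the submitters' processing notes. Its processed form has background subtracted and spatial trends removed, per the file headers. A deposited table of log2 values matched that intensity, on the log2 scale, up to 1 constant per array, so its scale and direction are known and genes were not centred. Column medians were -3.77, -3.92, -3.83 and -3.81 (doxycycline 1 to 4) and -3.97, -3.70, -3.79 and -3.86 (saline 1 to 4). The table served as an alternative.

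Control spots and outlier-flagged spots (169 to 259 per array) were dropped, and a probe's spots were averaged. Each array's 75th percentile of log2 intensity was subtracted. Probes well above background on at least 4 of 8 arrays were kept (28626), and the brightest kept probe stood for its gene. The main test was limma's moderated test (version 3.58.1, R 4.3.3), two-sided, from lmFit and eBayes. Its p-values were adjusted by Benjamini-Hochberg over every gene tested, and the subunit pairs were compared with exact permutation tests. The fit was first tested on simulated data. The number of arrays limits the precision.

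The genes and lists were chosen with earlier results of these data known. By rule the text names the 10 genes, Psmb5, Psmb6 and Psmb7, up to 4 genes of smallest p from each other pathway or interferon list, Tnk1 and Hprt, and the 3 genes most like Nlrc5 and Psmb8 in profile. Exceptions are marked as chosen after their values were seen. Of these, Psma6, Psma7, Psmg4, Bcap31, H2-T10, H2-M3 and Creb1 were not called and are not described singly. Alternatives were normexp background correction, quantile normalization, no filter, a common floor, the value table, mean of probes, array weights, a replicate block, each array left out, saline 2 and 4 left out, and, chosen after seeing the data, doxycycline 4 and saline 4 left out. Probe names and mm9 positions are the array's, and all 12 probe accessions matched the same symbol in RefSeq (GRCm38.p6), the source of the promoters.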

Additional observations from a re-analysis of the deposited data

Results flagged for a closer look

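In 5 of 24 groups of 4 arrays, 1 group for each probe of the 10 genes and each treatment, the lowest array stood apart from the other 3 by Dixon's criterion. Chance flags about 1 in 20 groups. All 5 were array 4 of their group. H2-D1, a class I heavy chain, read 6.69 on doxycycline 4 and 6.55 on saline 4, and without saline 4 its difference was -0.06. The dimmer H2-K1 probe read 6.32 on saline 4. Psmb8 read 5.11 and Tapbp 4.14 on saline 4. The cause was not tested.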

How the results depend on the processing

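The 10 genes, the other genes named by rule except Tnk1, and the counts of genes passing were recomputed under 18 alternatives. The subunit pairs were not recomputed with array weights or with the replicate block. Tnk1, the cell type markers and the genes named after their values were seen were not recomputed. With 4 arrays a group on 1 slide, and dim probes detected less often with saline, small differences and dim genes are the least certain. Of the 10 genes, 2 passed as higher and 1 as lower with normexp background, with no filter on dim probes and with array weights. As higher, 0 passed with the replicate block or without saline 2 and 4 together. Leaving out 1 array gave 0 to 1 higher and 0 to 1 lower, and the fit without doxycycline 4 was the only 1 of the 8 with a gene passing as higher. Over all genes, array weights gave 2929 higher and 3400 lower, and 11809 were lower with no filter, where the median of all genes was -0.33. Without saline 2 and 4 together 1027 were lower, and without doxycycline 4 and saline 4 together, a choice made after seeing the data, 959. Leaving out 1 array gave 648 to 1541 higher and 729 to 1870 lower.

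Same-numbered arrays of the groups correlated at 0.011, -0.056, 0.10 and 0.025 in their deviations, and differently numbered ones at -0.23 to 0.20. No pairing by replicate number stood out, but so few arrays cannot exclude one. With the replicate number as a block, 787 genes were higher and 905 lower. In that fit 0 of the 10 genes and 0 of the other pathway genes were higher.

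For the other pathway genes, 6 were higher with normexp, 3 with quantile normalization, 2 with no filter and 5 with array weights. As lower there were 6 with no filter, 6 with array weights and 0 both without saline 2 and 4 and without doxycycline 4 and saline 4. Leaving out 1 array gave 1 to 3 higher and 1 to 4 lower.

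Psmb8 minus Psmb5 turned to -0.081 (normexp), -0.0022 (mean of probes), -0.073 (without saline 2 and 4) and -0.17 (without doxycycline 4 and saline 4), and ran from -0.19 to 0.16 over single arrays left out. Psmb9 minus Psmb6 ran from -0.75 to -0.43 and Psmb10 minus Psmb7 from -0.65 to -0.21.

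Differences near 0 changed sign. With normexp H2-K1 was 0.040, Psmb5 0.076, Psmb6 0.014, Fbxo38 3.04e-04 and Sra1 0.075. With quantile normalization Tap2 was 0.011, Psmb6 0.0055 and Sra1 0.060. With the mean of probes Creb1 was -0.20. With array weights B2m was -0.030, H2-D1 -0.024 and Psmb6 0.058. Without saline 2 and 4 B2m was -0.010, H2-D1 -0.065 and Psmb6 0.067, and without doxycycline 4 and saline 4 B2m was -0.037, Psmb5 0.062 and Psmb6 0.077. Over single arrays left out, Tap2 ran from -0.14 to 0.011, above 0 without doxycycline 3 or 4. B2m ran from -0.029 to 0.13, H2-D1 from -0.055 to 0.40, Psmb5 from -0.26 to 0.046 and Psmb6 from -0.16 to 0.10, each with its sign changed without saline 4 alone. The cause was not tested.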
